A study of Mus musculus with 2 samples.

Results

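The classical cadherins and non-clustered protocadherins were described in total RNA of the mouse hippocampus. Members were all annotated genes whose symbol begins with Cdh or Pcdh followed by a number, or is a numbered Celsr, Fat or Dchs, and that have a protein-coding transcript. This gave 44 of 55536 annotated genes. The clustered protocadherins, whose symbols carry a letter before the number, were not taken. The rule is wider than the working name. Besides 5 type I and 13 type II cadherins, which are the classical ones, and 12 protocadherins, it took 5 other cadherins, 3 Celsr, 4 Fat and 2 Dchs genes. Cdh13, Cdh16, Cdh17, Cdh23 and Cdh26 are not classical cadherins.

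Cadherins are surface proteins whose extracellular repeats bind calcium and hold neighbouring cells together. Classical cadherins bind beta-catenin and p120-type catenins inside the cell and so reach the actin skeleton, and type I and type II members differ in the way their outermost repeats dock. Non-clustered protocadherins lack the catenin-binding tail. Those of the delta-1 group can bind protein phosphatase 1 and those of the delta-2 group the WAVE actin complex. Celsr proteins are the cadherins of planar polarity and axon guidance, and the very large Fat and Dchs proteins bind each other. In the hippocampus members of these families are known for target choice, synapse formation and synaptic plasticity.

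The data are 2 stranded, ribosomal-RNA-reduced RNA-seq libraries of 1 group, biological replicates 2 and 1. Both came from the tissue labelled layer of hippocampus of female mice of strain B6CASTF1/J, an F1 hybrid of a laboratory strain and the wild-derived CAST strain, at 25 days of age. Each library was made with added ERCC spike-in RNA from 300 ng. The labels give separate biosamples and the same donor entry, so the spread between the libraries may be technical. Depth was 41206890 expected counts in replicate 2 and 34919989 in replicate 1, of which members took 126143 and 113206. Levels are TPM, a transcript abundance scaled to a fixed total per library, which is per length and can be set side by side between genes. There is no other group, so levels are descriptions, and the libraries were compared with each other as 1 against 1, without a test. In bulk RNA fewer cells of a type and less RNA per cell cannot be told apart. All 9 listed markers of hippocampal pyramidal and granule neurons were detected, with a summed level of 524 TPM in replicate 2 and 541 TPM in replicate 1. Detection was not particular to them: all 5 listed thalamic, all 5 striatal and 4 of 5 neocortical markers were detected too.

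Most members were present. A level of at least 1 TPM in both libraries, used here for detection, was reached by 35 of 44 members, 79.5%, where 57.6% of all nuclear protein-coding genes reached it. The median member had 6.54 TPM, against 3.21 TPM for all 22015 nuclear protein-coding genes and 14.98 TPM for those detected. Members summed to 744.5 TPM in replicate 2 and 837.7 TPM in replicate 1, or 0.177% and 0.193% of the TPM of nuclear protein-coding genes. The sum was concentrated in a few genes. Pcdh1 alone held 19.7% of it, and the highest 5 members, Pcdh1, Celsr2, Pcdh9, Pcdh20 and Cdh2, held 51.0%. By mean level 19 members stood at 10 TPM or more, 13 between 2 and 10 TPM, 4 between 1 and 2 TPM and 8 below 1 TPM. In the order of means, the library values of 23 of 43 neighbouring pairs overlapped, and among the highest 5 only Celsr2 and Pcdh9 did.

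**Figure D1:**
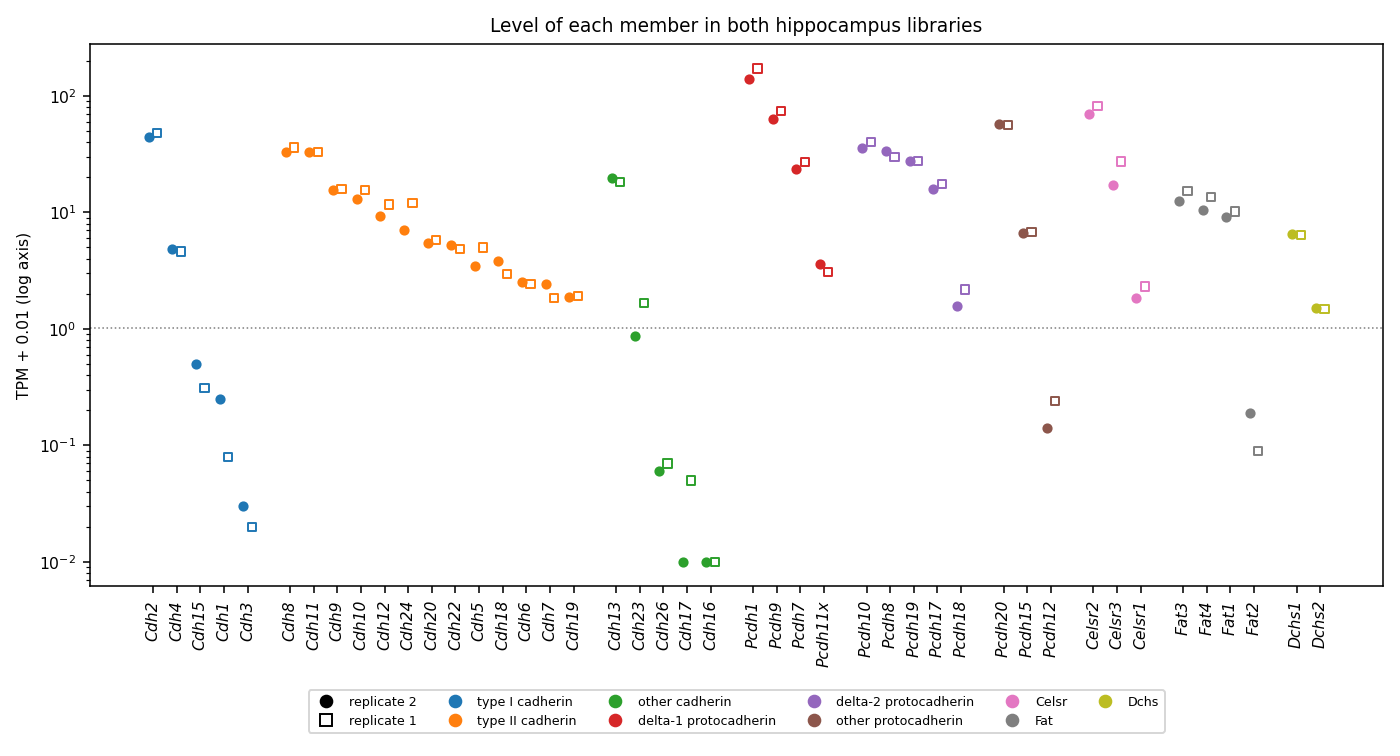
TPM + 0.01 on a log axis for all 44 members, grouped by family and ordered by mean within each; filled circles are replicate 2, open squares replicate 1, and the dotted line is 1 TPM. All 13 type II cadherins lie above the line in both libraries, while 2 of 5 type I and 1 of 5 other cadherins do.

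By family the delta-1 protocadherins led, with a summed 230.4 TPM in replicate 2 and 276.9 TPM in replicate 1, 32.1% of member TPM. Type II cadherins followed with 135.5 and 149.2 TPM in replicates 2 and 1, which is 17.99% spread over 13 genes. Delta-2 protocadherins held 14.7% and Celsr genes 12.7%. The 3 other protocadherins held 8.04%, type I cadherins 6.495%, Fat genes 4.51%, other cadherins 2.58% and Dchs genes 0.998%.

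Of the type I cadherins, which make the strongest epithelial and neural junctions, Cdh2 was the main RNA. Cdh2 (N-cadherin, the cadherin of neuroepithelial junctions and of many synapses) had 44.4 TPM in replicate 2 and 47.8 TPM in replicate 1. Cdh4 (R-cadherin, first known from retina) had 4.86 TPM in replicate 2 and 4.62 TPM in replicate 1. The remaining type I genes were below 1 TPM: Cdh15 (M-cadherin of muscle), Cdh1 (E-cadherin of epithelia) and Cdh3 (P-cadherin). Cdh3 had 3 counts in replicate 2 and 1 count in replicate 1, at or under the floor of 3 counts used here.

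All 13 type II cadherins were detected at the gene level, and they formed a graded series without a single leader. Cdh8, a cadherin of corticothalamic and other forebrain circuits, had 32.9 TPM in replicate 2 and 36.1 TPM in replicate 1. Cdh11, also prominent in mesenchyme, had 32.7 TPM in replicate 2 and 33.2 TPM in replicate 1. The ranges of Cdh8 and Cdh11 overlapped. Cdh9, known for synapses between dentate granule cells and CA3 neurons, had 15.6 TPM in replicate 2 and 15.8 TPM in replicate 1. Cdh10, its close relative, had 13.1 TPM in replicate 2 and 15.7 TPM in replicate 1. Cdh9 and Cdh10 overlapped as well. Below them Cdh12 (brain cadherin) had 9.25 TPM in replicate 2 and 11.7 TPM in replicate 1. Cdh24, which binds catenins as other type II members do, had 7.10 TPM in replicate 2 and 12 TPM in replicate 1. It was the type II member whose libraries stood farthest apart, as described below.

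The lower type II genes lay between 1 and 6 TPM. Cdh20 had 5.49 TPM in replicate 2 and 5.82 TPM in replicate 1. For Cdh22 the levels were 5.26 TPM in replicate 2 and 4.86 TPM in replicate 1. Cdh5 (VE-cadherin, the junctional cadherin of endothelium) had 3.47 TPM in replicate 2 and 4.99 TPM in replicate 1. The 4 listed endothelial markers summed to 62.0 TPM in replicate 2 and 68.9 TPM in replicate 1; by TPM all 4 were lower in replicate 2, where 64.9% of the genes compared below were, and with TMM-scaled counts 3 of the 4 were and Ly6c1 was not. Their part in the level of Cdh5 was not tested. Cdh18 had 3.80 TPM in replicate 2 and 2.94 TPM in replicate 1. Cdh6, a cadherin of kidney and of neural circuits, had 2.53 TPM in replicate 2 and 2.43 TPM in replicate 1. Cdh7 had 2.41 TPM in replicate 2 and 1.82 TPM in replicate 1. Of these, Cdh7-202, which codes for the full 785 codons, held 0.40 TPM in replicate 2 and 0.48 TPM in replicate 1. The rest was in Cdh7-204, marked for nonsense-mediated decay, and in coding transcripts of at most 76 codons. Cdh19, known from Schwann cell precursors, had 1.88 TPM in replicate 2 and 1.90 TPM in replicate 1. It had the lowest mean of the type here, but its range overlapped that of Cdh7, and in the second quantification its mean of 4.02 TPM stood above Cdh6 at 3.55 and Cdh7 at 3.47 TPM. Cdh20, Cdh7 and Cdh19 lie in this order on chromosome 1, and their means lay between 1.89 and 5.66 TPM.

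Among the other cadherins only Cdh13 was detected. Cdh13 (T-cadherin, which is held in the membrane by a lipid anchor and has no cytoplasmic tail) had 19.8 TPM in replicate 2 and 18.3 TPM in replicate 1. Cdh23, an upper strand of the tip link of inner-ear hair cells, had 0.860 TPM in replicate 2 and 1.66 TPM in replicate 1 and so missed the detection level in replicate 2. In the second quantification Cdh23 had 1.06 TPM in replicate 2 and 1.46 TPM in replicate 1, and so reached the level in both. Cdh26 had 0.0500 TPM in replicate 2 and 0.0600 TPM in replicate 1. Cdh17, a cadherin of intestine, had 0 counts in replicate 2 and 3 in replicate 1. Cdh16 (kidney-specific cadherin) had 0 counts in both libraries, which allows up to 0.101 TPM in replicate 2 and 0.126 TPM in replicate 1 by counting error alone. In the second deposited quantification it was given 0.188 TPM in replicate 2 and 0.522 TPM in replicate 1, so the quantifications differ on whether it was read at all.

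All 4 delta-1 protocadherins were detected, and 3 of them were above 20 TPM. Pcdh1 (chromosome 18, 38185914 to 38212053, minus strand, mm10) was the highest of all members, with 139.7 TPM in replicate 2 and 172 TPM in replicate 1. Its lowest value lay above the highest value of every other member. Pcdh9, a neuronal delta-1 protocadherin, had 63.4 TPM in replicate 2 and 74.8 TPM in replicate 1. Pcdh7 had 23.7 TPM in replicate 2 and 26.9 TPM in replicate 1. The X-linked Pcdh11x was well below them at 3.60 TPM in replicate 2 and 3.07 TPM in replicate 1. The catalytic subunits of protein phosphatase 1, which delta-1 tails can bind, were Ppp1cb at 189.9 TPM in replicate 2 and 163 TPM in replicate 1, Ppp1ca at 119 and 106.5 TPM, and Ppp1cc at 84.4 and 87.4 TPM, each with replicate 2 first.

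All 5 delta-2 protocadherins were detected. Pcdh10 (OL-protocadherin, which acts in axon growth and synapse elimination) had 35.7 TPM in replicate 2 and 40.1 TPM in replicate 1. Pcdh8 (arcadlin, induced by neuronal activity and able to draw N-cadherin from the surface) had 33.8 TPM in replicate 2 and 30.03 TPM in replicate 1. Pcdh19, whose human counterpart underlies an X-linked epilepsy, had 27.7 TPM in replicate 2 and 27.6 TPM in replicate 1. Its libraries were nearly equal. Pcdh17, an adhesion protein of corticobasal ganglia synapses, had 15.9 TPM in replicate 2 and 17.4 TPM in replicate 1. Pcdh18 was lowest at 1.56 TPM in replicate 2 and 2.17 TPM in replicate 1. The 7 listed WAVE partners were all detected and summed to 929 TPM in replicate 2 and 1012 TPM in replicate 1, led by Nckap1, the subunit that delta-2 tails bind, at 225.6 and 230.7 TPM. Taok2, the kinase linked to Pcdh8, had 60.7 TPM in replicate 2 and 69.1 TPM in replicate 1.

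Of the protocadherins outside both delta groups, Pcdh20 was far above the others. Pcdh20 (chromosome 14, 88464743 to 88471396, minus strand) had 57.2 TPM in replicate 2 and 56.3 TPM in replicate 1 and stood next after Pcdh9 in the order of means. Pcdh15, the lower strand of the hair-cell tip link, had 6.59 TPM in replicate 2 and 6.77 TPM in replicate 1. Of the tip-link partners listed with Pcdh15 and Cdh23, Whrn, Myo7a and Lhfpl5 were detected. Ush1c, Ush1g, Tmc1 and Tmc2, which hair cells need for transduction, were each below 1 TPM in both libraries. Pcdh15 is also used as a marker of oligodendrocyte precursors, and the 3 listed precursor markers summed to 36.7 TPM in replicate 2 and 37.7 TPM in replicate 1; their part in its level was not tested. Pcdh12, an endothelial protocadherin, had 0.130 TPM in replicate 2 and 0.230 TPM in replicate 1.

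The planar polarity cadherins had a clear order. Celsr2 (chromosome 3, 108390851 to 108415552, minus strand), which acts in ciliated ependyma and in dendrite growth, had 69.8 TPM in replicate 2 and 81.7 TPM in replicate 1. Celsr3, which guides the large axon tracts of the forebrain, had 17.3 TPM in replicate 2 and 27.3 TPM in replicate 1. Celsr1, the main family member in the epithelium of the closing neural tube, had 1.82 TPM in replicate 2 and 2.30 TPM in replicate 1. The libraries of the 3 genes did not overlap with one another. All 9 listed planar polarity partners were detected, and Prickle2 was highest at 81.2 TPM in replicate 2 and 88.8 TPM in replicate 1, before Dvl1 at 30.7 and 32.6 TPM and Prickle1 at 29.0 and 33.0 TPM.

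Fat3, which shapes dendrites of retinal amacrine cells, led its family with 12.6 TPM in replicate 2 and 15.3 TPM in replicate 1. Fat4, the binding partner of Dchs1, had 10.4 TPM in replicate 2 and 13.5 TPM in replicate 1. Fat1, which controls actin at cell edges, had 9.21 TPM in replicate 2 and 10.2 TPM in replicate 1. These 3 overlapped with their neighbours in the order. Fat2, made by cerebellar granule cells, was at 0.180 TPM in replicate 2 and 0.0800 TPM in replicate 1. Dchs1 had 6.47 TPM in replicate 2 and 6.35 TPM in replicate 1, and Dchs2 had 1.5 and 1.47 TPM. Fjx1, the mouse relative of the fly kinase that tunes Fat and Dachsous binding, had 25.1 TPM in replicate 2 and 24.4 TPM in replicate 1.

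The 8 members with means below 1 TPM had between 0 and 107 expected counts over both libraries, and their means are known only coarsely.

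The catenins that classical cadherins need were nearly all present. Of 11 listed adhesion partners 10 were detected, with a summed 626 TPM in replicate 2 and 628 TPM in replicate 1. Ctnnb1 (beta-catenin) had 262 TPM in replicate 2 and 235 TPM in replicate 1. Pkp4, a p120-type catenin, had 121 TPM in replicate 2 and 117 TPM in replicate 1. Ctnnd2, the delta-catenin of neurons, had 86.2 TPM in replicate 2 and 96.9 TPM in replicate 1. Ctnna3 was the exception at 0.600 TPM in replicate 2 and 0.590 TPM in replicate 1. The neuronal alpha-catenin Ctnna2 had 38.9 TPM in replicate 2 and 40.8 TPM in replicate 1, and the epithelial Ctnna1 18.04 and 18.09 TPM. The 6 genes of cadherin shedding and intramembrane cleavage were all detected and summed to 152.6 TPM in replicate 2 and 153 TPM in replicate 1, among them the sheddase gene Adam10 at 26.5 and 26.7 TPM.

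Several chromosomes hold more than 1 member, listed here in their order along the chromosome and not by distance. Chromosome 8 holds 9 members, in the order Fat1, Cdh8, Cdh11, Cdh5, Cdh16, Cdh3, Cdh1, Cdh13 and Cdh15. Of these 5 were detected, with means of 0 to 34.5 TPM, and the run Cdh16, Cdh3 and Cdh1 was undetected between Cdh5 and Cdh13. Chromosome 15 holds the type II genes Cdh6, Cdh9, Cdh10, Cdh12 and Cdh18 and then Celsr1, all 6 detected between 2.06 and 15.7 TPM. On chromosome 14 Cdh24, Pcdh8, Pcdh17, Pcdh20 and Pcdh9 were all detected, between 9.55 and 69.1 TPM. Chromosome 3 holds Fat4, Pcdh10, Pcdh18, Dchs2 and Celsr2, with means of 1.49 to 75.7 TPM. Of the 3 members on chromosome 18, Cdh2 and Pcdh1 were detected and Pcdh12 was not.

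**Figure D2:**
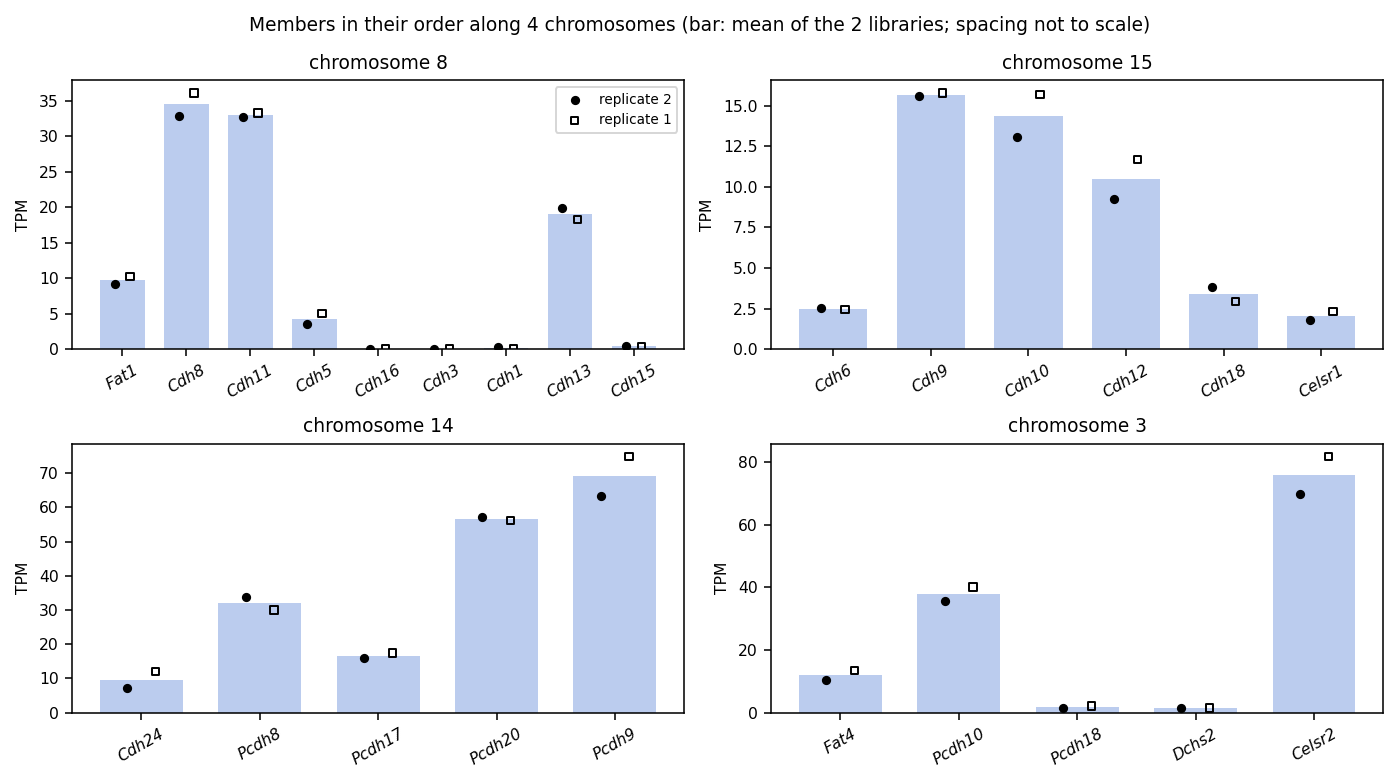
TPM of the members on chromosomes 8, 15, 14 and 3 in their order along each chromosome, spacing not to scale; bars are the mean of the libraries, filled circles replicate 2 and open squares replicate 1. On chromosome 8 Cdh8 and Cdh11 stand side by side at 34.5 and 33.0 TPM on average, and Cdh16, Cdh3 and Cdh1 lie near 0.

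Promoter sequences were looked at for their CpG content. RefSeq promoters (250 bases before to 50 after the gene start, GRCm38.p6) matched 29 of 44 members, and for 17 of these the RefSeq start lay within 100 bases of the start of the member's highest protein-coding transcript. These 17 had a median of 18 CpG in 300 bases and a range of 4 to 40, where the median over all 32851 promoters was 7. At least 10 CpG were found in 12 of the 17, and in 43.5% of all promoters. Level and CpG number did not run in parallel throughout: Spearman's rho was 0.46 over the 17 genes and 0.30 over all 29 matched members, whose median was 14 CpG, given as a description. The upstream 250 bases of Celsr2 and Pcdh20 are shown because both genes exceed 50 TPM while their promoters are at the ends of this range, with 40 CpG for Celsr2 and 4 for Pcdh20 in the 300 bases. Capitals mark CpG. The first is chr3:108415580-108415829, minus strand, and the second chr14:88471397-88471646, minus strand.
Celsr2: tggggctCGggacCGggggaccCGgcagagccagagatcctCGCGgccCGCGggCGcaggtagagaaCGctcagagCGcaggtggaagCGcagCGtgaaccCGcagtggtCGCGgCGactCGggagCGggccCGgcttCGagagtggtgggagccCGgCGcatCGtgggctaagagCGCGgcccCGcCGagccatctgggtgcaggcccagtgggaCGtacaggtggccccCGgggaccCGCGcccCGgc
Pcdh20: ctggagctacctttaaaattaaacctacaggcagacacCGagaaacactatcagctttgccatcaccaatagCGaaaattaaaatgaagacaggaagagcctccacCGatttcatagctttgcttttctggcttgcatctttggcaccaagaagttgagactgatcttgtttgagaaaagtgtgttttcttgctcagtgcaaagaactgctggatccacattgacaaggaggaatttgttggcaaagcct
The upstream part holds 32 CpG in Celsr2 and 3 in Pcdh20. The letters TATAAA, searched on the gene's strand from 50 to 10 bases before the start, were found for Pcdh8 and Pcdh15 among the 17 and in 2.40% of all promoters.

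The transcript tables divide each gene's TPM over its annotated transcripts. For the 25 members at 5 TPM or more, the leading transcript held a median of 74.7% of the gene's TPM, and in 20 of the 25 it held over 50%. All 25 leaders were protein coding. The second quantification named the same leader for 21 members and another one for Cdh10, Pcdh20, Pcdh9 and Pcdh10. The shares that follow are from the first quantification. Cdh20, Cdh22 and Cdh24 had all TPM in a single transcript each there, while the second gave Cdh22-201 83.6% and Cdh24-201 94.0%. For Cdh20 this was fixed in advance, as it has 1 annotated transcript. Fat4-201 held 96.0%, Dchs1-201 95.5%, Pcdh17-201 94.9%, Fat3-205 94.5% and Celsr2-201 89.8%. Shares between 50% and 85% were found for Cdh13-201 with 82.4%, Cdh9-202 with 76.2%, Cdh10-202 with 76.0%, Cdh11-201 with 74.8%, Fat1-205 with 74.7%, Pcdh20-201 with 65.9%, Cdh12-203 with 62.1%, Celsr3-207 with 60.7%, Pcdh8-201 with 60.4%, Pcdh19-202 with 55.9%, Pcdh7-203 with 55.5% and Cdh2-201 with 51.9%. The 5 members with no transcript above 50% were Cdh8, led by Cdh8-204 with 41.4%, Pcdh1, led by Pcdh1-204 with 41.2%, Pcdh9, led by Pcdh9-204 with 30.4%, Pcdh10, led by Pcdh10-204 with 30.04%, and Pcdh15, led by Pcdh15-234 with 24.2%.

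Transcripts without an annotated protein held a minor share. Over all members protein-coding transcripts held 89.8% of TPM in replicate 2 and 89.2% in replicate 1. Retained-intron transcripts held 6.00% in replicate 2 and 6.85% in replicate 1, where those of all nuclear protein-coding genes held 6.73% and 8.36%. The protein-coding share was below 90% in 11 of the 25 members. It was lowest for Pcdh15 at 47.8%, where retained-intron transcripts held most of the rest, then for Cdh12 at 63.0%, Pcdh9 and Celsr3 at 72.9% each, Cdh11 at 74.8%, Pcdh19 at 75.1% and Pcdh10 at 77.4%.

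**Figure D3:**
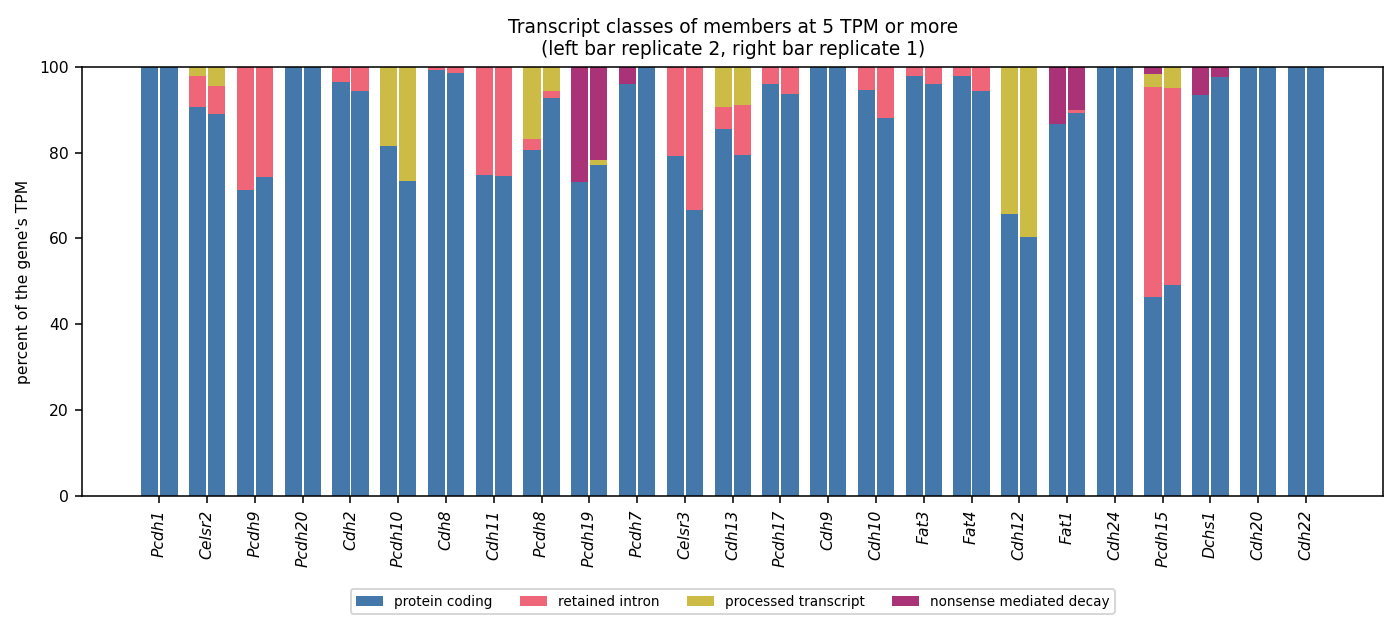
Percent of each gene's TPM in protein-coding, retained-intron, processed and nonsense-mediated-decay transcripts for the 25 members at 5 TPM or more, with replicate 2 as the left and replicate 1 as the right bar of each pair. Pcdh15 shows the smallest protein-coding share, 47.8% on average. Pcdh1, Pcdh20, Cdh9, Cdh24 and Cdh20 have no annotated transcript of another class, so no other share was possible for them. Cdh22 has 1 marked for nonsense-mediated decay, and its protein-coding share is 100% here and 83.6% in the second quantification.

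Short non-coding transcripts carried much of this share and rest on few reads. Pcdh9-203, a retained-intron transcript of 656 bases, had 18.2 TPM in replicate 2 and 19.2 TPM in replicate 1, from 304 and 257 counts. In the second quantification it had 44.0 and 45.1 TPM in replicates 2 and 1 and became the leader. Pcdh10-205, a processed transcript of 634 bases, had 6.64 TPM in replicate 2 and 10.7 TPM in replicate 1, and 29.5 and 36.2 TPM in the second quantification. Pcdh19-204, of 335 bases and marked for nonsense-mediated decay, had 7.44 TPM in replicate 2 and 6.01 TPM in replicate 1, and was listed at 0 in both libraries of the second quantification. Cdh12-202, of 404 bases, had 3.17 TPM in replicate 2 and 4.63 TPM in replicate 1 from 29 and 34 counts. The gene levels of these 4 members include these transcripts.

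Several members have protein-coding transcripts with more than 1 annotated coding end. Protein-coding transcripts were grouped by their last coding base, and shares are of the gene's protein-coding TPM. Cdh8 and Pcdh10 are shown in letters. No single end prevailed in either gene, and the shares of their main ends changed little between the libraries. The same held for Pcdh1, which is read below and is not shown in letters. The last 45 coding bases are in lower case and the stop codon is in capitals, from GENCODE M21 transcripts on mm10.
Pcdh10-204: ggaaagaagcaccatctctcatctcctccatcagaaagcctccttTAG
Pcdh10-202: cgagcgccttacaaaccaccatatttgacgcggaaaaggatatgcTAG
Pcdh10-201: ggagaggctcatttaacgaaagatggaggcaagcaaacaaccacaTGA
Pcdh10-203: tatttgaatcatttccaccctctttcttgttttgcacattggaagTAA
Cdh8-204: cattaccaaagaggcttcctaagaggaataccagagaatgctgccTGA
Cdh8-203: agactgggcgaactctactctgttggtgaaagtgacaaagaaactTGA
Cdh8-201: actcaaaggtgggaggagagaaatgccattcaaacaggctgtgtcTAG
Cdh8-207: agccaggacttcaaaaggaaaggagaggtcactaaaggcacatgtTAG
The Pcdh10 stretches lie on the plus strand, at chr3:45381896-45381943 for the first and chr3:45432497-45432544 for Pcdh10-201. Those of Pcdh10-202 and Pcdh10-203 are joined over an exon boundary and span chr3:45392847-45419426 and chr3:45392868-45399363. On the minus strand, Cdh8-203 ends at chr8:99030565-99030612, Cdh8-201 at chr8:99029850-99029897 and Cdh8-207 at chr8:99024819-99024866. The stretch of Cdh8-204 is joined over an exon boundary and spans chr8:99024911-99030876.

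In Pcdh10 the transcript coding for the longest annotated protein held a minor share of protein-coding TPM. Protein-coding transcripts together held 77.4% of the gene's TPM, and 55.6% in the second quantification. These are RNA shares, and no protein was measured. The end of Pcdh10-204 (896 codons, 877 shared with Pcdh10-201, stop in an intron of it) held 39.6% in replicate 2 and 37.9% in replicate 1. The end of Pcdh10-202 (1040 codons, 1034 shared) held 39.5% in replicate 2 and 36.4% in replicate 1. These are the first and second sequences above. The longest form, Pcdh10-201 with 1057 codons, held 16.0% in replicate 2 and 19.5% in replicate 1, and Pcdh10-203, with 1047 codons, 4.81% and 6.22%. The second quantification gave 36.7%, 37.8%, 19.8% and 5.76% in the same order, so the short and the middle form led in both.

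In Cdh8 the full-length end was not the highest either. Cdh8-203, with 799 codons, held 24.3% in replicate 2 and 24.6% in replicate 1. Cdh8-204, with 711 codons of which 696 are shared with it, held 41.9% in both replicates. Cdh8-201, with 716 codons and 696 shared, held 18.8% in replicate 2 and 19.2% in replicate 1. Cdh8-207, with 754 codons and 708 shared, held 14.4% in replicate 2 and 12.7% in replicate 1. Together the 3 shortened ends held 75.1% in replicate 2 and 73.7% in replicate 1, and 70.4% in the second quantification. The lost codons are those at the C-terminal end, where classical cadherins bind beta-catenin. Cdh8-204 and Cdh8-207 stop beyond the last base of Cdh8-203, and Cdh8-201 stops within an exon of it.

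Ends were also read for Pcdh1, Pcdh7, Pcdh15 and Pcdh9. In Pcdh1 the end of Pcdh1-204 held 39.8% in replicate 2 and 42.6% in replicate 1, that of Pcdh1-203, which codes for 360 codons, 38.1% and 35.8%, and that of Pcdh1-202 and Pcdh1-201, with 1038 codons, 20.6% and 19.9%. The coding start of Pcdh1-204 is not complete in the annotation. In Pcdh7 the end of Pcdh7-203, with 1255 codons, prevailed at 76.5% in replicate 2 and 66.2% in replicate 1. In Pcdh15 the end of Pcdh15-234 held 65.7% in replicate 2 and 55.1% in replicate 1, and the end shared by the longest forms, of up to 1943 codons, 24.5% and 35.2%. In Pcdh9 the end of Pcdh9-204 held 72.1% in replicate 2 and 65.3% in replicate 1, and most of the rest, 26.3% and 32.4%, was Pcdh9-205, which has no annotated stop codon. The leading shares of Pcdh7, Pcdh15 and Pcdh9 moved more between the libraries than that of Cdh8 did, and Pcdh15 offered 872 counts in replicate 2 and 762 counts in replicate 1 to divide over all its transcripts.

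**Figure D4:**
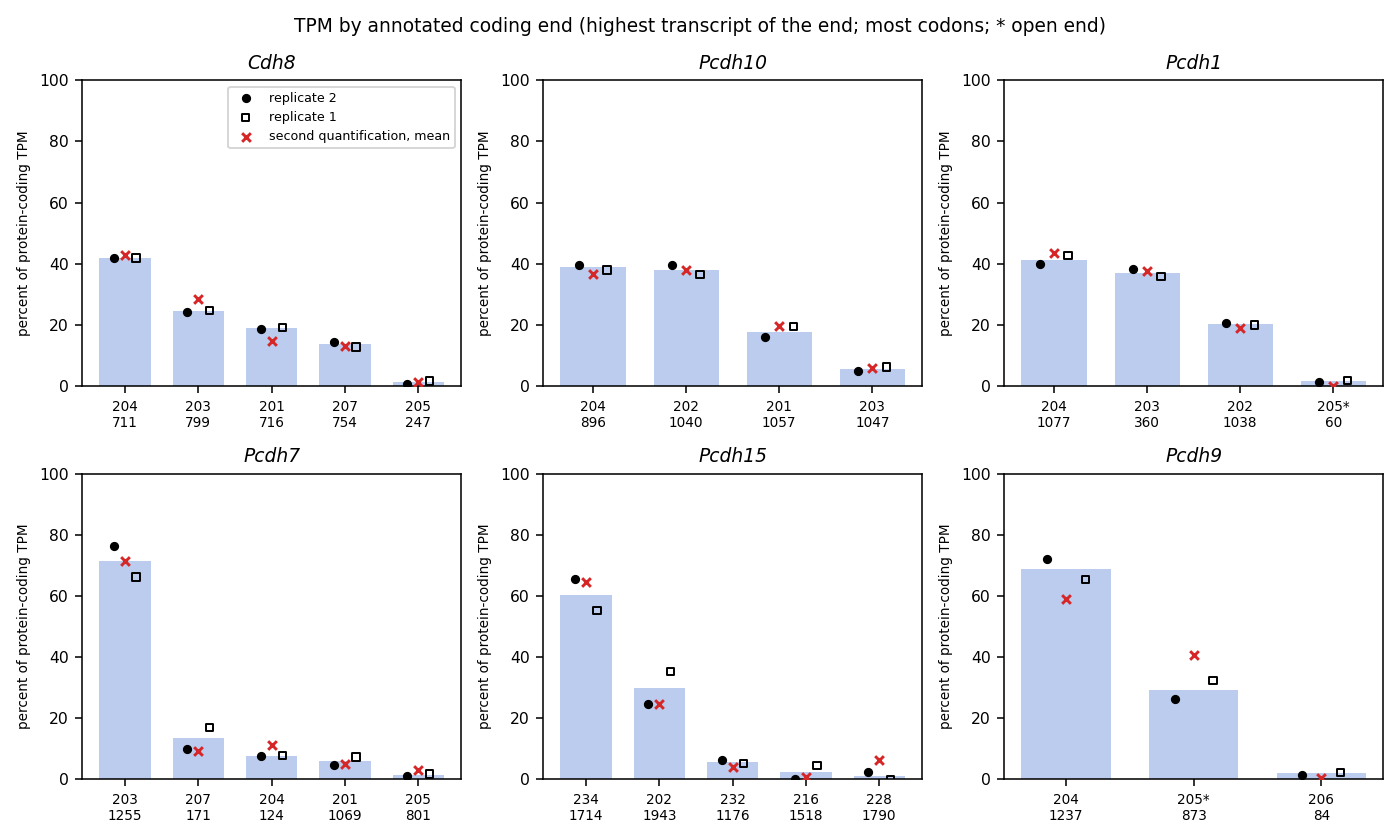
Percent of protein-coding TPM by annotated coding end in 6 members; bars are the mean of the libraries, filled circles replicate 2, open squares replicate 1 and crosses the mean of the second quantification. Below each bar stand the number of the highest transcript with that end and its largest codon count, and a star marks an end with no annotated stop codon. In Cdh8 and Pcdh10 the longest form (799 and 1057 codons) is not the highest bar.

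The libraries were then compared as the ratio of TPM, replicate 2 over replicate 1, for genes whose expected counts over both reached 200. This took 36 members of 12962 genes. Each ratio has an exact Clopper-Pearson 95% interval of its counts, which covers counting error only. The median log2 ratio of members was -0.12, against -0.07 over all genes, and 24 of 36 members, 66.7%, were lower in replicate 2, where 64.9% of all genes were. With counts scaled by TMM factors the medians were 0.00 and 0.02, and 17 of 36 members were lower, where 44.1% of all genes were. Only 1 member was 1.5-fold lower on this scale, where 1.86% of all genes were. The members' shares in both scalings were near those of all genes.

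At least 1.5-fold lower in replicate 2 were 3 members, 8.33%, where 3.33% of all genes were, and none was 1.5-fold higher, where 0.555% were. The 3 were Cdh24, Celsr3 and Cdh23. None was 2-fold lower or higher, where 0.725% and 0.1% of all genes were. Cdh24 (chromosome 14, 54631231 to 54641364, minus strand) had 723 counts in replicate 2 and 979 in replicate 1. Its ratio was 0.592 (95% counting interval 0.537 to 0.652), log2 -0.76, and it was -0.67 with TMM-scaled counts and -0.72 in the second quantification. It was the only member past 1.5-fold in all 3.

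Celsr3 (chromosome 9, 108826320 to 108852969, plus strand) had a ratio of 0.632 (0.607 to 0.658), log2 -0.66, from 4769 unscaled counts in replicate 2 and 5131 in replicate 1. Its log2 ratio was -0.34 with TMM-scaled counts, -0.39 in the second quantification and -0.41 over protein-coding transcripts alone. The short retained-intron transcript Celsr3-206 was listed at 0 TPM in replicate 2 and had 2.75 TPM in replicate 1, and the gene's effective length was 9189 bases in replicate 2 and 7800 in replicate 1. Over protein-coding transcripts alone, a comparison added after the data had been seen, Celsr3 had 13.7 TPM in replicate 2 and 18.2 TPM in replicate 1.

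Cdh23 (chromosome 10, 60302748 to 60696490, minus strand) had a ratio of 0.518 (0.394 to 0.681) from 103 counts in replicate 2 and 117 in replicate 1, and log2 -0.42 with TMM-scaled counts. Its protein-coding transcripts held 18.6% of its TPM. Cdh23-206, a processed transcript of 438 bases, had 0.290 TPM in replicate 2 and 0.910 TPM in replicate 1, from 3 and 7.44 counts. The second quantification gave this transcript 0 TPM in replicate 2 and 0.206 TPM in replicate 1. There the log2 ratio of the gene was -0.47, short of 1.5-fold. Vsir, at 10.2 TPM on average, overlaps Cdh23 on the opposite strand.

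**Figure D5:**
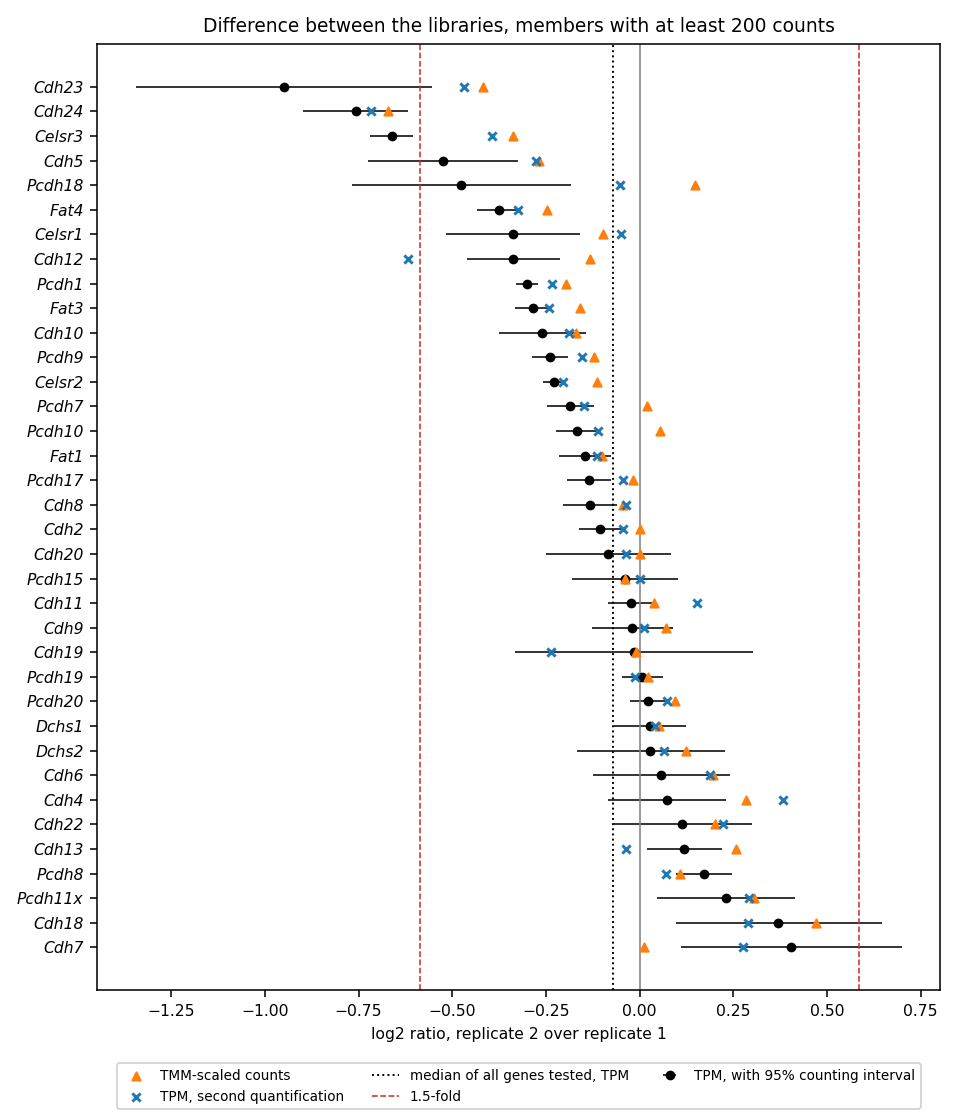
Log2 ratio of replicate 2 over replicate 1 for the 36 members with at least 200 expected counts; circles with bars are deposited TPM with the 95% counting interval, triangles TMM-scaled counts and crosses the second quantification. The dotted line is the median of all 12962 genes, -0.07, and the dashed lines are 1.5-fold; of Cdh24 all 3 marks lie beyond the left line.

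Some smaller differences at the gene level were not seen over protein-coding transcripts alone, and others were larger there. The member median was log2 -0.12 at the gene level and -0.11 over protein-coding transcripts. Pcdh9 went from -0.24 to -0.30, Pcdh7 from -0.18 to -0.25 and Cdh13 from 0.12 to 0.22. Pcdh10 was 35.7 TPM in replicate 2 and 40.1 TPM in replicate 1 at the gene level, log2 -0.17, and -0.02 over its protein-coding transcripts. With TMM-scaled counts at the gene level Pcdh10 was at log2 0.05. Pcdh8 was higher in replicate 2, log2 0.17, and -0.03 over protein-coding transcripts; its processed transcript Pcdh8-202 had 5.72 TPM in replicate 2 and 1.71 TPM in replicate 1. Retained-intron transcripts with at least 20 counts were lower in replicate 2 for 22 of 28 member transcripts, 78.6%, where 81.9% of those of all protein-coding genes were. Protein-coding transcripts were lower for 58 of 86 member transcripts, 67.4%, where 56.5% were.

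Tissue markers beside these ratios were read as well. The 5 thalamic markers summed to 36.2 TPM in replicate 2 and 49.0 TPM in replicate 1. By TPM 2 of them, Tcf7l2 and Prkcd, were at least 1.5-fold lower in replicate 2, where 3.33% of all genes compared were. With TMM-scaled counts their log2 ratios were -0.55 and -0.44, short of 1.5-fold. On this scale Rora was lower too, log2 -0.22, while Slc17a6 and Ramp3 were higher in replicate 2, log2 0.17 and 0.13. Ramp3 had 185 counts, under the minimum of 200. The 5 choroid plexus markers summed to 60.1 TPM in replicate 2 and 27.5 TPM in replicate 1, of which Ttr made 55.1 and 23.5 TPM; 2 of these 5 were detected, and Folr1 was listed at 0 in replicate 1. The 5 striatal markers summed to 30.4 TPM in replicate 2 and 26.1 TPM in replicate 1, and the 5 neocortical ones to 56.3 and 62.3 TPM. The 4 meningeal markers, of which 3 were detected, summed to 41.5 TPM in replicate 2 and 31.5 TPM in replicate 1. Dcn, at 24.8 TPM in replicate 2 and 14.3 TPM in replicate 1, was over 1.5-fold higher, where 0.555% of all genes compared were. The other 2 detected, Col1a1 and Col1a2, were slightly lower in replicate 2 by TPM, log2 -0.04 and -0.11. With TMM-scaled counts they were slightly higher, log2 0.03 and 0.07. The part of these tissue markers in the ratios of members was not tested. No gene of the partner lists with at least 200 counts was 1.5-fold apart.

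The second quantification ordered members nearly alike, with Spearman's rho of 0.995 over 44 genes from the same libraries. Its levels were higher by a median of 1.53-fold for members at 1 TPM or more, and by 1.63-fold for all nuclear protein-coding genes. Some members overlap other annotated genes. Cdh12 shares its strand with Gm49685, at 3.50 TPM, and Cdh15 with Gm20388, at 1.79 TPM.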

How the data were processed

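Total RNA libraries of mouse hippocampus, stranded and ribosomal-RNA-reduced with ERCC spike-ins per the labels, were analysed from the deposited tables. For each library the authors deposited gene and transcript tables with TPM and expected counts, plus for transcripts a percent of gene TPM, in the RSEM column format per the file headers. A second deposited transcript table, in the kallisto format per the file headers, gives estimated counts and TPM, and is called the second quantification. Per the deposited notes the build was mm10 with GENCODE M21 annotation; which aligner was run is not stated in the labels or files used.

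TPM was used as deposited, as single values or mean over 2 libraries. Expected counts were rounded to whole numbers for TMM factors (edgeR 4.0.16) and size factors (DESeq2 1.42.0), over genes with at least 20 counts. Intervals and the floor of 3 counts cover counting error only. Ratios used at least 200 counts. On simulated counts with counting error only, the 95% interval covered 95.2% of 12762 unchanged genes, and 2 of these passed 1.5-fold. The simulation held no other variation between libraries, so it cannot give the error rate of the 1.5-fold call. In the data 3.33% of all genes compared were 1.5-fold lower and 0.555% higher. Promoters are from RefSeq. Other tools were R 4.3.3, matplotlib 3.10.9, scipy 1.17.1, numpy 2.4.6, pandas 2.3.3 and Python 3.11.15. Columns of other samples numbered 0.

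Members and lists were chosen with earlier results of these data known. Values are named for members with a mean of at least 2 TPM, for those past 1.5-fold, and for most of the lower ones; Cdh15 and Cdh1 are given by range; leading transcripts are named at 5 TPM or more. With 1 group there is no test and no p-value. Alternatives were thresholds of 0.5 and 2 TPM, TPM rescaled over nuclear protein-coding genes, the second quantification, TMM and DESeq2 scaling, pseudocounts of 0.1 and 1, other count minimums, a 2-fold limit, each replicate alone and, added after seeing the data, protein-coding transcripts only.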

Additional observations from a re-analysis of the deposited data

How the results depend on the processing

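No paired analysis was possible because there is only 1 group. The summed member level of 791 TPM was 1852 TPM after rescaling over nuclear protein-coding genes and 1250 TPM in the second quantification, and the median member level of 6.54 TPM was 15.3 and 10.3 TPM; the first changes the scale by construction, and for the second the cause was not tested. The median log2 ratio of -0.12 was 0.00157 with TMM and 0.00159 with DESeq2 size factors. Both scalings bring the bulk of genes near equality by construction. The median over all genes compared was -0.07 by TPM and 0.02 with each of them. Any further cause was not tested. The 3 members past 1.5-fold were 1, Cdh24, with TMM and with DESeq2 size factors, 0 at 2-fold and 7 with a minimum of 20 counts. The lower minimum added Pcdh12, lower in replicate 2 (log2 -0.82), and Cdh15, Cdh1 and Fat2, higher in replicate 2 (log2 0.71, 1.78 and 1.17). In the second quantification there were 2, Cdh24 and Cdh12, both lower in replicate 2. Over protein-coding transcripts alone there were 2, Cdh24, lower, and Cdh7, higher in replicate 2 (log2 0.67). In Cdh7 the short Cdh7-207 had 0.63 TPM in replicate 2, from 11.59 counts, and was listed at 0 in replicate 1. Cdh7-202, with 785 codons, was lower in replicate 2, at 0.40 against 0.48 TPM. With TMM-scaled counts Cdh7 was at log2 0.01. Shares of all genes were not counted for the lower minimum, the second quantification or protein-coding transcripts alone. The median share of the leading transcript, 74.7%, was 69.6% in the second quantification and 73.29% to 73.31% with each replicate left out. Detection of 35 members ranged from 30 to 36 over the thresholds, the second quantification and each replicate alone. The levels of all 32 members with a mean of at least 2 TPM moved by more than 1 SD in the second quantification. Leaving out 1 of 2 libraries shifts a mean by less than 1 SD by construction and shows nothing on stability. Depth limits the 8 members below 1 TPM, which had at most 107 counts.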
